A study of Drosophila melanogaster with 3 samples.

Results

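The 10 genes described here encode insulator proteins of the fly: the DNA-binding factors BEAF-32, CTCF, su(Hw), Ibf1, Ibf2, pita and ZIPIC, the cofactors Cp190 and mod(mdg4), and the chromodomain protein gene Chro. They were listed by name and looked up in the gene annotation, where all 10 of 10 were found among 13945 protein-coding genes. The rule that lists them uses no measured value, but the list was drawn up with earlier results of these data known. The experiment mapped the binding of CG12659, whose human relative INO80C belongs to the chromatin-remodelling complex INO80. Chromatin came from whole *Drosophila melanogaster* embryos of mixed sex, 0 to 24 h old, of the transgenic strain CG12659-GFP, in which CG12659 carries GFP at its C terminus. It was immunoprecipitated with an anti-GFP antibody and sequenced (ChIP-seq) in 3 biological replicates that form 1 group. The sources used here name neither the promoter that drives the fusion nor the state of the untagged CG12659 gene.

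Insulator proteins sit at borders between chromosome domains, where they can keep an enhancer from acting on the wrong promoter and hold distant sites together. Most of the DNA-binding ones are zinc-finger proteins that each read their own sequence. They recruit shared partners, above all the BTB-domain proteins CP190 and Mod(mdg4), and many of their sites lie near gene starts.

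Each deposited region has a summit, its point of highest enrichment, and a signal, the authors' score for it, which was ranked only within a list (rank 1 is the highest). The IDR peaks are the 8952 regions that the authors kept as reproducible between replicates (irreproducible discovery rate). They are also the 8952 regions of highest signal in a pooled list of 30000, called on the 3 replicates together. The replicate lists held 30000, 30000 and 28466 regions. No list gives read counts, so depth was unknown. In whole embryos, binding in more cells and stronger binding per cell cannot be told apart, and region lists give no marker levels with which to check the labelled stage. A peak was placed at a gene when its summit was at most 500 bp from an annotated start of transcription (TSS), and offsets from a TSS are negative upstream. A peak counted as supported by a replicate when it overlapped, by 50% of the shorter region, a region among the 8952 highest of that replicate. The IDR peaks were kept for agreement between these same replicates, so this support is partly fixed.

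CG12659-GFP was found at the promoters of 8 of the 10 insulator genes, all but Ibf2 and ZIPIC, against 42.3% of all protein-coding genes. BEAF-32, su(Hw) and pita had 2 or more such peaks, which makes 3 of the 10 genes against 11.9%. The strongest promoter peak of each of the 8 genes was supported by all 3 replicates, as was that of 84.7% of the protein-coding genes with a peak. These shares are given as background only, because the genes were listed by hand and no test was made.

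Between 2 kb upstream of the first TSS and 2 kb past the gene end, 9 of the 10 genes had at least 1 IDR peak, against 58.6% of protein-coding genes. These gene windows held 24 distinct IDR peaks among 46 pooled regions. These need not all be separate sites, because a pair of IDR peaks overlapped in the window of BEAF-32 and another in that of pita. Of the 24 peaks, 12 lay at a TSS of an insulator gene and 11 at a TSS of another gene only. The last lay in an intron of mod(mdg4), over 500 bp from any TSS, which makes 1 of the 10 genes with such a peak, against 14.3%. All 24 peaks had an overlapping region in every replicate list, and 19 were supported by all 3 replicates. No such shares are given for the whole IDR set, so whether these counts are usual is not shown.

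**Figure D1:**
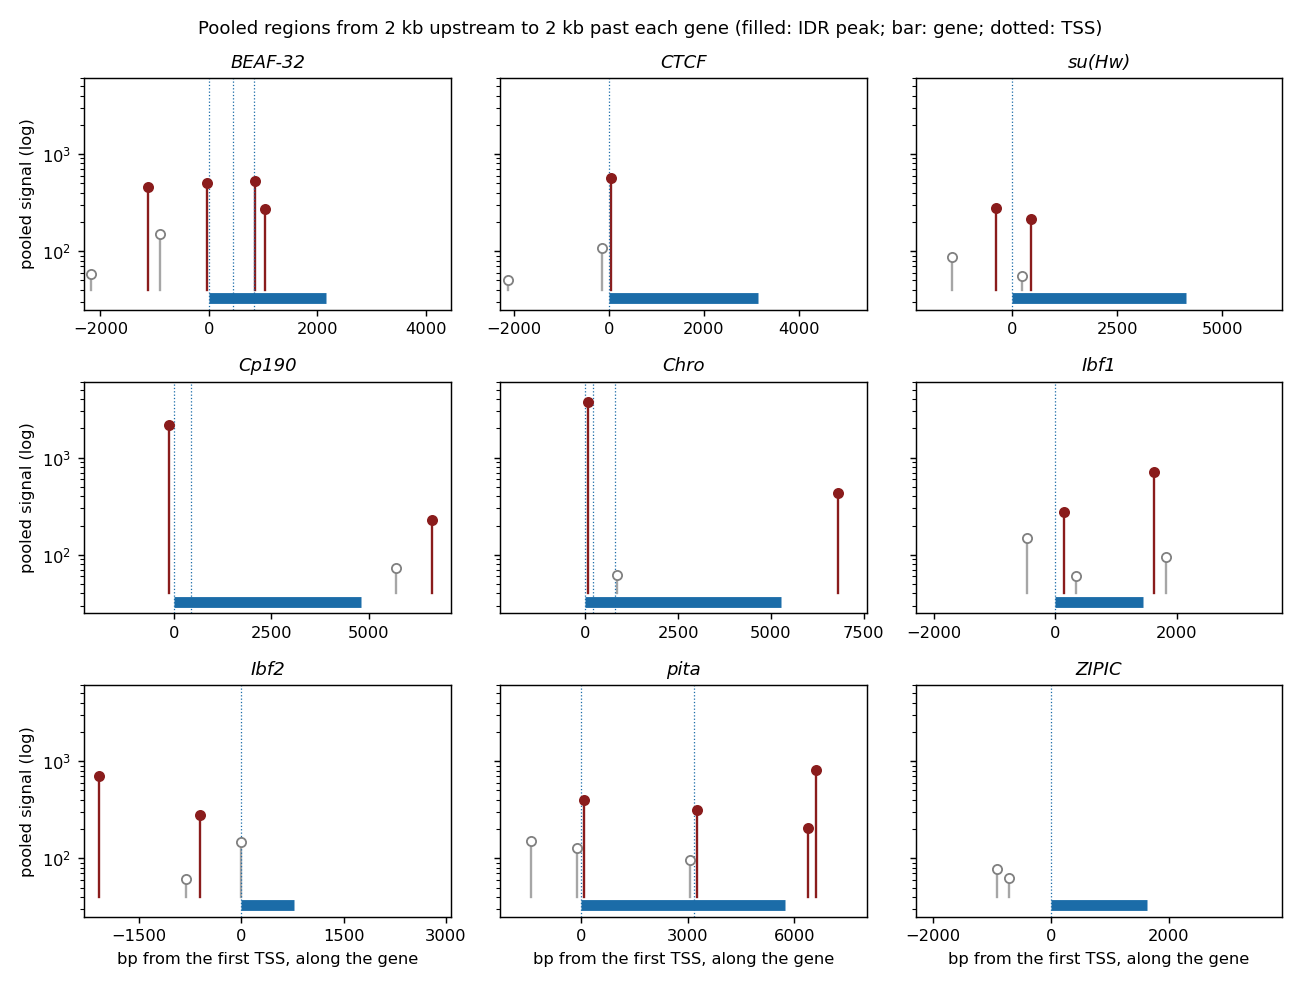
Pooled regions in the windows of 9 insulator genes, plotted by summit position (bp from the first TSS, along the gene) and pooled signal (log axis); filled points are IDR peaks, open points other pooled regions, blue bars the gene and dotted lines its TSSs. The tallest points are those at the starts of Chro (3721) and Cp190 (2157), and ZIPIC has 2 open points and no filled one.

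A divergent partner, meaning a gene on the other strand whose TSS lay upstream within 1000 bp, was present for 6 of the 10 genes, against 39.6% of protein-coding genes. Of those 6 genes, 5 had a promoter peak, against 68.7% of all genes with such a partner. Of the 4 without one, CTCF, mod(mdg4) and pita had a promoter peak and ZIPIC had none, which makes 3 of 4 against 25% of genes without a partner. The partners of Chro, Cp190 and su(Hw) were Ssl1, CG4338 and Polr2I, whose starts lay 105, 281 and 500 bp away. Ibf1 and Ibf2 were each other's partner at 463 bp, and the partner of BEAF-32 was an antisense non-coding RNA. Within 2000 bp the heart regulator gene tin also faced mod(mdg4), at 1576 bp, and the integrin gene ItgaPS5 faced pita, at 1960 bp.

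The insulator genes differed widely in signal. Chro and Cp190 stood far above the rest. Of the 5903 protein-coding genes with a promoter peak, 99.8% had a lower promoter signal than Chro and 98.6% a lower one than Cp190. CTCF and BEAF-32 stood above 64.9% and 59.4% of those genes. The other 4 stood lower, with pita above 39.3%, mod(mdg4) above 28.7%, Ibf1 above 17.9% and su(Hw) above 17.7%. The median promoter signal of the 8 insulator genes with a peak was 458, and that of the 5903 genes was 461. Chro was 11th and Cp190 84th in order of promoter signal among those genes.

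The order of the genes was taken from the strongest promoter region in the pooled list and the rank of its matched region in each replicate list. The mean rank was 16 ± 1.73 for Chro and 101 ± 25.4 for Cp190 (SD, n = 3). It was 2206 ± 308 for CTCF, 2715 ± 138 for BEAF-32 and 3859 ± 300 for pita. From Chro down to pita, no gene's 3 ranks overlapped those of the next. For CTCF and BEAF-32 this depended on the peak chosen. A second BEAF-32 promoter peak, of nearly the same pooled signal, had ranks 2522, 2207 and 3434, which overlapped those of CTCF. The mean rank was 4831 ± 1071 for mod(mdg4), 6100 ± 816 for Ibf1 and 6363 ± 298 for su(Hw). The ranks of pita overlapped those of mod(mdg4), those of mod(mdg4) overlapped those of Ibf1, and those of Ibf1 overlapped those of su(Hw), so neighbours among these 4 did not differ beyond their spread. Ibf2, whose promoter region was no IDR peak, followed at 11244 ± 1315 without overlap, and ZIPIC had no region at its TSS in the pooled list.

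**Figure D2:**
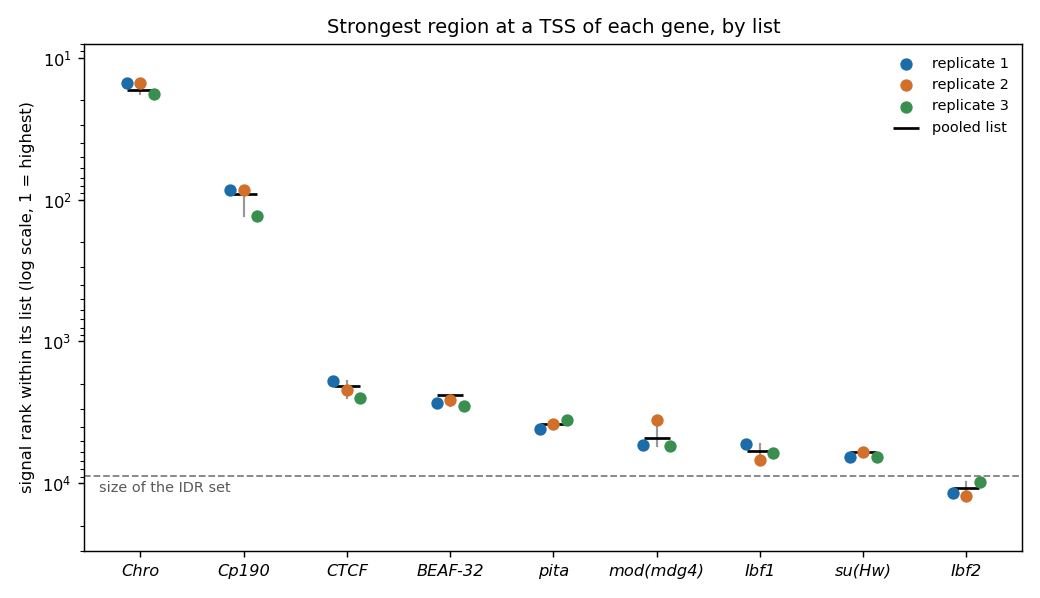
Rank by signal (log axis, 1 is the highest) of the strongest pooled region at a TSS of each insulator gene and of the matched region in each replicate list; points are the 3 replicates, grey lines their range, black bars the pooled list, and the dashed line marks the 8952 regions of the IDR set. Chro lies between ranks 15 and 18 and Cp190 between 86 and 130 in the replicates, and Ibf2 lies below the dashed line in each replicate.

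**Figure D3:**
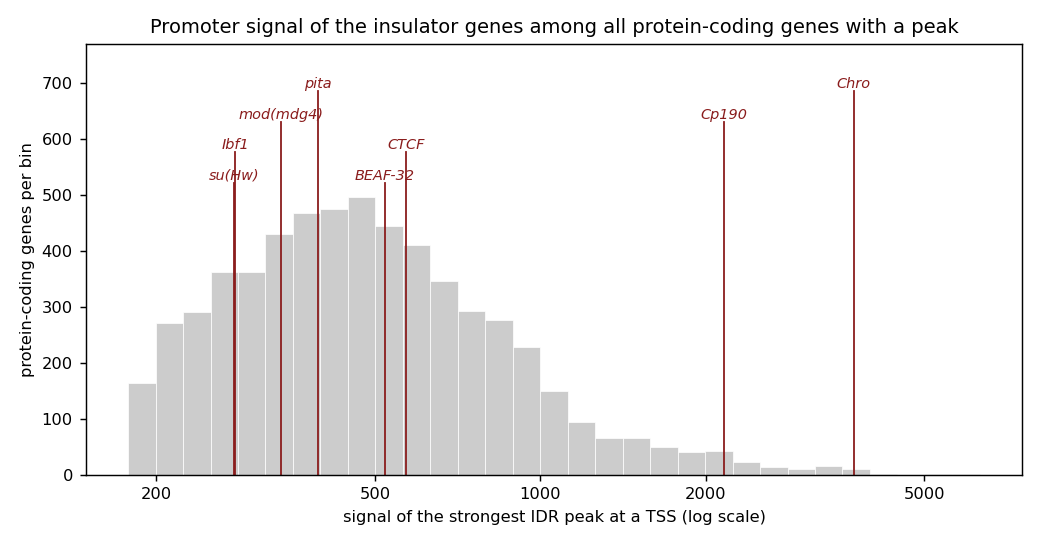
Histogram of the signal of the strongest IDR peak at a TSS (log axis) for the 5903 protein-coding genes with one, with the 8 insulator genes marked by lines whose height carries no value. Chro and Cp190 lie in the right tail and the other 6 genes, from su(Hw) at 277 to CTCF at 571, lie across the body of the distribution.

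Chro encodes Chromator, a chromodomain protein of polytene interbands that works with BEAF-32 and also joins the mitotic spindle. The gene (FBgn0044324) lies at chr3L:22873702-22878984 on the minus strand of dm6 and has 3 annotated TSSs. Its peak at chr3L:22878633-22879146 had rank 17 of the pooled list at a signal of 3721. The summit lay 87 bp inside Chro, in the 5' UTR, and 192 bp upstream of the start of Ssl1, a TFIIH subunit gene of general transcription. The signal was 1559, 1276 and 916 in replicates 1, 2 and 3, which was rank 15, 15 and 18 of each list. All 3 replicates thus placed this region among their very highest. The replicate summits lay 88, 89 and 82 bp downstream of the Chro TSS, with an SD of 3.79 bp.
The sequence between the starts of the divergent genes is shown because it lies under the strongest peak at any insulator gene. It runs 5′ to 3′ on the strand of Chro, from the base next to Ssl1 to the base next to Chro (chr3L:22878985-22879088, dm6), and has no capitals because it held none of the motifs marked in capitals below. The summit lay outside this stretch, inside Chro, and a match to CGATA, which is among those motifs, lay 3 bp from the summit.
Chro to Ssl1: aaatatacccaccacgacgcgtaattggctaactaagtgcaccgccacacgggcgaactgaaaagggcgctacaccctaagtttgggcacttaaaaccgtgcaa

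Further along Chro the signal was low. A pooled region 53 bp downstream of the innermost Chro TSS had a signal of 62.4 and rank 23829, with matched regions in replicates 2 and 3 only. Past the gene end, a peak of signal 432 lay 56 bp inside Arf1, a small GTPase gene of membrane traffic, and 25 bp upstream of CG11109. Its replicate ranks were 2595, 3355 and 6668, so it was lowest in replicate 3, and all 3 replicates supported it.

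Cp190 encodes the BTB and zinc-finger protein that most insulator complexes share. The gene (FBgn0000283) lies at chr3R:15270432-15275241 on the minus strand, with 2 annotated TSSs, the outer at 15275241 and the inner, which the annotation marks as canonical, at 15274790. Its promoter peak at chr3R:15275119-15275622 had a signal of 2157 and rank 92 in the pooled list. The replicate signals were 911, 764 and 484, which was rank 86, 86 and 130, so replicate 3 placed it lower but still far above the next insulator gene. The summit lay between the divergent genes, 122 bp upstream of the outer Cp190 TSS and 159 bp upstream of CG4338. It lay 134, 120 and 119 bp upstream of Cp190 in replicates 1, 2 and 3 (SD 8.39 bp).
The stretch between both starts is shown on the Cp190 strand (chr3R:15275242-15275521, dm6). In this and the later stretches, capitals mark matches on either strand to TATCGATA (the DRE, read by DREF), CGATA (the core read by BEAF-32), GGTGGCGC (part of the CTCF motif), TTGCATAC (part of the su(Hw) motif), GAGAG (GAGA), GGTCACAC (M1BP) or CAGCTG (E-box).
Cp190 to CG4338: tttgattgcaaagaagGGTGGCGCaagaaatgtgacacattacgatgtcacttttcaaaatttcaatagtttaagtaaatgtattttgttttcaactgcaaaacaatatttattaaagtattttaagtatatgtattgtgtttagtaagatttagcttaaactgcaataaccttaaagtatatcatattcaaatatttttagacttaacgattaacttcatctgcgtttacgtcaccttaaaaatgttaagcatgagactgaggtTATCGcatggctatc
The first capitals are GGTGGCGC at bases 17 to 24, and the second are the reverse of CGATA at bases 266 to 270, 15 bp upstream of the outer Cp190 TSS. A DRE centred 122 bp downstream of the summit, at the outer TSS itself, runs past the end of the stretch. Near the far end of Cp190, a peak of signal 226 lay 38 bp upstream of the zinc transporter gene Zip88E and 86 bp upstream of CG14864. Its ranks were 5472, 8551 and 11088 in the replicates, and 2 of the 3 supported it.

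The gene mod(mdg4) encodes a family of BTB proteins that share their N-terminal part and differ in their C-terminal exons, some of which are joined by trans-splicing from separate precursor transcripts. One form works with su(Hw) and CP190 at the gypsy insulator. The gene (FBgn0002781) spans chr3R:21350846-21377401 on the minus strand, 26556 bp with 22 transcripts and 1 TSS, and is the longest of the 10. Its window held 7 IDR peaks and 13 pooled regions.

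At the mod(mdg4) TSS itself the signal was modest. The peak at chr3R:21377130-21377619 had a signal of 337 and rank 4771, and its summit lay 26 bp downstream of the TSS. The replicate ranks were 5418, 3595 and 5479, with signals of 137, 133 and 70.2, so replicate 2 placed it highest. The summit moved from 47 bp downstream of the TSS in replicate 2 to 13 bp upstream in replicate 3.
The 150 bases upstream of the TSS are shown because they hold a DRE near the summit (chr3R:21377402-21377551, minus strand, dm6).
mod(mdg4) upstream: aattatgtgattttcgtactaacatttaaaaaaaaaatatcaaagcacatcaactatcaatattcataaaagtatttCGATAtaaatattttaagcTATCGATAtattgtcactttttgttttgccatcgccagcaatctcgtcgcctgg
The first capitals are a CGATA match, 73 bp upstream of the TSS, and the second are TATCGATA, whose first base lay 54 bp upstream. A DRE contains CGATA on both strands. A stronger peak, of signal 992 and rank 597, lay 1355 bp upstream of mod(mdg4) and 221 bp upstream of tin, and its replicate ranks were 525, 596 and 760.

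The highest signal inside mod(mdg4) came from the starts of the precursor genes. The annotation lists 23 precursor genes named pre-mod(mdg4), 14 on the strand of mod(mdg4) and 9 on the other, and these share 7 distinct TSSs. All 23 had an IDR peak within 500 bp, but from 3 peaks only, so the genes are not independent of each other. The strongest of these, at chr3R:21365210-21365677, had a signal of 1465 and rank 258, above the mod(mdg4) promoter itself. It lay 11954 bp downstream of the mod(mdg4) TSS, 41 bp inside precursor E, 157 bp upstream of precursors C and AB, and 162 bp upstream of the 7 precursors that start at Y on the other strand. The replicate ranks were 339, 220 and 181, with signals of 536, 530 and 429, and the summit varied by an SD of 5.20 bp. It was thus high and steady in position in all 3 replicates.
The bases between the starts of E and Y are shown because they are the divergent promoter under this peak (chr3R:21365489-21365608, minus strand, dm6). None of the motifs marked in capitals occurred there.
mod(mdg4) E to Y precursors: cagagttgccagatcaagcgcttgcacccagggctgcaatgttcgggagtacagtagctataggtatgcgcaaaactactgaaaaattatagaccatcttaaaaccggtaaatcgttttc

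The other precursor starts had weaker peaks. That at precursors AA, O and N had a signal of 527 and its summit 13 bp upstream of their start, with replicate ranks of 2291, 2914 and 2186. That at precursors T and Z, on the other strand, lay 76 bp upstream of their start and 332 bp upstream of the 8 precursors K, L, P, J, I, B, G and H. It had a signal of 234 and replicate ranks of 5741, 13961 and 4650, so replicate 2 did not support it. Past the gene end, a peak of signal 367 lay 9 bp inside the gene aus, and its replicate ranks were 4603, 3137 and 6090.

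One peak of the locus lay away from every annotated start. At chr3R:21376309-21376516, 208 bp wide, it had a signal of 599 and rank 1846, higher than the peak at the mod(mdg4) TSS. Its summit was in the first 1000 bp of the gene, 984 bp downstream of the TSS and in an intron. The replicate signals were 325, 214 and 70.8 and the ranks 1136, 1521 and 5435, so replicate 3 placed it much lower than the others. In replicate 3 it was about level with the peak at the mod(mdg4) TSS, which had a signal of 70.2 and rank 5479. The replicate summits lay 984, 995 and 968 bp downstream (SD 13.6 bp).
The 201 bases around this summit are shown on the strand of mod(mdg4) (chr3R:21376317-21376517, dm6). The capitals are a pair of overlapping GAGAG matches, the letters read by GAGA factor, near the centre.
mod(mdg4) intron summit: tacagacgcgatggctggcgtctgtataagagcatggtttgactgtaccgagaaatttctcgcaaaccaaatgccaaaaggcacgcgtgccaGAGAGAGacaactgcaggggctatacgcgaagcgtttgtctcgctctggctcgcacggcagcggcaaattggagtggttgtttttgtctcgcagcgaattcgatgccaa

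**Figure D4:**
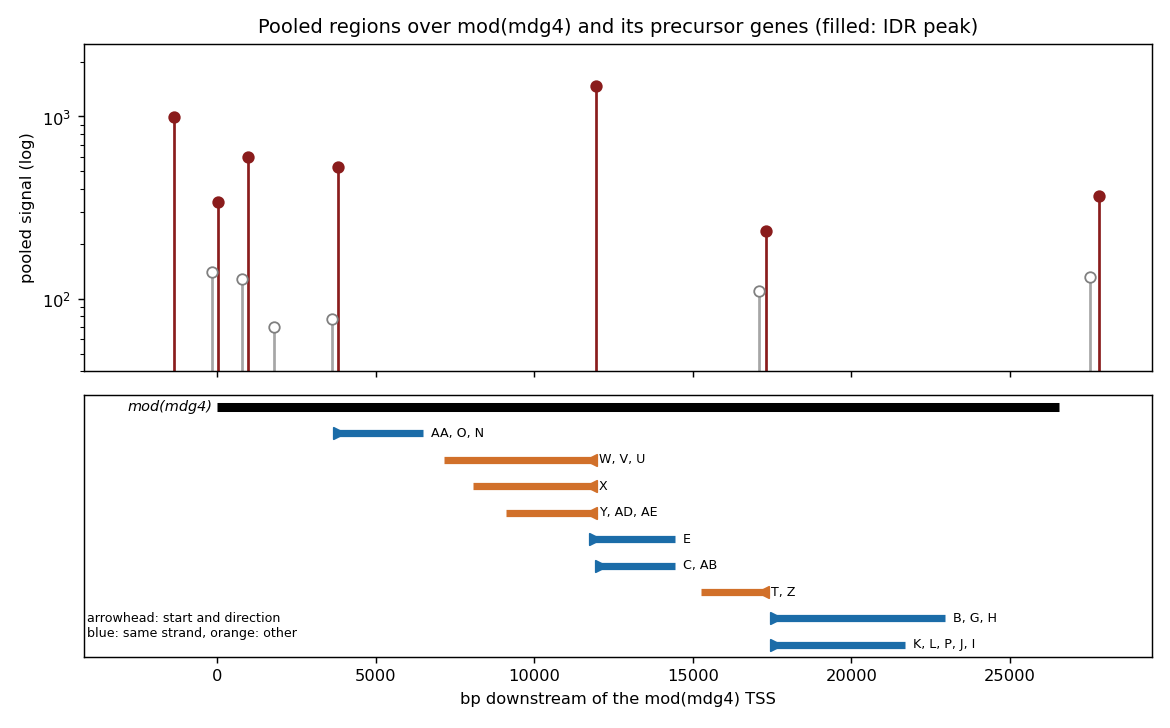
Pooled regions over the mod(mdg4) locus by position (bp downstream of its TSS) and pooled signal (log axis), with the gene and its precursor genes drawn below, blue on the strand of mod(mdg4) and orange on the other, and an arrowhead at each start; filled points are IDR peaks. The tallest point, at 11954 bp with a signal of 1465, stands over the divergent starts of precursors E and Y.

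CTCF encodes the fly homologue of the vertebrate zinc-finger insulator protein and binds domain borders of the bithorax complex. The gene (FBgn0035769) lies at chr3L:7353578-7356713 on the minus strand with 1 TSS. Its single IDR peak, at chr3L:7356415-7356904, had a signal of 571 and rank 2048. The summit lay 53 bp inside the gene, in the 5' UTR. The replicate signals were 260, 178 and 126 and the ranks 1901, 2199 and 2517, so the replicates placed it alike. The replicate summits lay 73, 61 and 20 bp downstream of the TSS (SD 27.8 bp).
The 150 bases upstream are shown because a DRE lies close to the start (chr3L:7356714-7356863, minus strand, dm6).
CTCF upstream: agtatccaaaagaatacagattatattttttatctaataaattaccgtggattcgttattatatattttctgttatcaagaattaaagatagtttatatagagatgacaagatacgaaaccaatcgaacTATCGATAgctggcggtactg
The capitals are TATCGATA, whose first base lay 21 bp upstream of the TSS, and its centre was 70 bp upstream of the summit. No further IDR peak lay in the window of CTCF, and a weak pooled region 2126 bp upstream had a match in 1 replicate only.

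Ibf1 and Ibf2 encode a pair of BED-finger proteins that bind insulators together and recruit CP190. The genes (FBgn0037670 and FBgn0037669) lie head to head at chr3R:9258964-9260400 on the plus strand and chr3R:9257727-9258501 on the minus strand. An IDR peak was found at Ibf1 only. That peak, at chr3R:9258864-9259353, had a signal of 279 and rank 5964, and its summit lay 145 bp inside Ibf1, in coding sequence. The replicate signals were 140, 81.9 and 63.3 and the ranks 5268, 6900 and 6132. Replicates 1 and 2 placed the summit 145 and 146 bp downstream of the TSS and replicate 3 at 113 bp. It lay 608 bp upstream of Ibf2, outside the limit of 500 bp.
At the Ibf2 start, a pooled region of signal 149 and rank 10876 had its summit 4 bp upstream of the TSS. It was in all 3 replicate lists, with summits 4, 1 and 2 bp upstream, but at ranks 11744, 12235 and 9752, so it was below the highest regions in each of them. The replicates thus agreed closely on its position and all ranked it low.
Both ends of the stretch between the genes are shown, each on the strand of its own gene (Ibf2 end, chr3R:9258502-9258651; Ibf1 end, chr3R:9258814-9258963; dm6).
Ibf2 end: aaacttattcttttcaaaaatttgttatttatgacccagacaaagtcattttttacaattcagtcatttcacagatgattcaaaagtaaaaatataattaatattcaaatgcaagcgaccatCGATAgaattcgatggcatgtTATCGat
Ibf1 end: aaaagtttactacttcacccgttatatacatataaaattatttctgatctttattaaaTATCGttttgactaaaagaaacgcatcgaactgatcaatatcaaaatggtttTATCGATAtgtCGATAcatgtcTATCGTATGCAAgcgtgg
The Ibf2 end held a CGATA match on each strand, 28 and 7 bp upstream of the TSS. The Ibf1 end held a DRE whose first base lay 40 bp upstream of the TSS, and 3 more CGATA matches. Its last capitals join a reverse CGATA and a reverse TTGCATAC that share a base. These lay over 150 bp from the Ibf1 summit. Past the end of Ibf1, a stronger peak of signal 705 lay 52 bp upstream of ATP6AP2, which encodes an accessory protein of the vacuolar ATPase, at replicate ranks of 1355, 1162 and 1867.

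ZIPIC encodes a zinc-finger protein that, like Pita, interacts with CP190. It was the gene with the least signal. The gene (FBgn0039740) lies at chr3R:30035240-30036870 on the minus strand, and no IDR peak lay in its window. A pair of pooled regions 706 and 925 bp upstream had signals of 63.0 and 76.8 and ranks 23637 and 19625. Both lay at the testis gene ocn and each matched a region of replicate 1 only. The nearest IDR summit lay 2832 bp upstream, with a signal of 654, within 500 bp of the starts of janA, Sry-alpha and Sry-beta.
The 132 bases next to the ZIPIC start are shown because they hold BEAF-32 core letters without a region in any list used here (chr3R:30036871-30037002, minus strand, dm6).
ZIPIC upstream: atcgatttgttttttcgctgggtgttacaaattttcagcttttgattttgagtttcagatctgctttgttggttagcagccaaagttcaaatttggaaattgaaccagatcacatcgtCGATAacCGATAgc
The capitals are CGATA matches whose first bases lay 14 and 7 bp upstream of the TSS.

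The gene su(Hw) encodes the zinc-finger protein that binds the gypsy insulator. It (FBgn0003567) lies at chr3R:14304455-14308589 on the minus strand with 1 TSS, which faces Polr2I, the gene of an RNA polymerase II subunit. Both of its IDR peaks were weak, and both summits were over 200 bp from the TSS. The stronger, at chr3R:14308729-14309218, had a signal of 277 and rank 5997, and its summit lay 385 bp upstream of su(Hw) but only 115 bp upstream of Polr2I. The replicate signals were 116, 91.9 and 59.5 and the ranks 6540, 6019 and 6531. Replicate 3 placed the summit farthest out, 456 bp upstream, against 398 and 378 bp in replicates 1 and 2.
The other su(Hw) peak lay inside the gene, 447 bp downstream of the TSS and in the 5' UTR, at a signal of 217 and rank 7692. The replicates agreed on its summit within an SD of 2.31 bp, but its ranks were 5685, 10097 and 7388, so replicate 2 did not support it.

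BEAF-32 encodes the factor that binds clusters of CGATA at the scs' boundary and at many promoters. It (FBgn0015602) lies at chr2R:14770469-14772630 on the plus strand, has 3 annotated TSSs and overlaps the antisense RNA gene asRNA:CR42254. It had the most promoter peaks of the 10 genes, 3, and all 3 replicates supported each. The third overlapped the strongest, so the 3 peaks need not be separate sites. The strongest, of signal 522 and rank 2400, lay 9 bp downstream of the innermost TSS. The replicate signals were 216, 163 and 116 and the ranks 2729, 2570 and 2845. A peak of nearly the same signal, 503, lay 43 bp upstream of the outermost TSS, at replicate ranks of 2522, 2207 and 3434. Its summit was placed 48, 43 and 44 bp upstream by the replicates (SD 2.65 bp). The outer and inner starts were thus marked about equally. These peaks are shared with asRNA:CR42254, since the inner summit lay 15 bp and the outer 156 bp upstream of a start of that gene.
The third BEAF-32 peak was weaker, with a signal of 269, and lay 209 bp downstream of the innermost TSS in coding sequence. Its replicate summits lay 173, 212 and 342 bp downstream, the widest spread among the promoter peaks (SD 88.5 bp). Upstream, a peak of signal 456 lay 68 bp inside Spred, which encodes an inhibitor of Ras and MAP kinase signalling and starts 1046 bp from BEAF-32.

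The gene pita encodes a zinc-finger protein that recruits CP190. It (FBgn0034878) lies at chr2R:23548967-23554712 on the minus strand, with an outer and an inner TSS, and had a peak in the 5' UTR at each. The outer peak had a signal of 395 and rank 3822, with its summit 78 bp downstream of the TSS. Its replicate signals were 166, 128 and 99.6 and its ranks 4170, 3834 and 3572, so no replicate stood apart. Replicate 3 placed the summit at 171 bp, against 66 and 74 bp in the others.
The inner peak had a signal of 311 and lay 97 bp downstream of the inner pita TSS and 141 bp downstream of the start of the caspase gene Dcp-1. Its ranks were 4923, 3552 and 12894, so replicate 3 did not support it. The strongest peak of the pita window belonged to neighbours: a signal of 810 at the starts of wmd and levy, a cytochrome c oxidase subunit gene, with replicate ranks of 845, 1184 and 1148.

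**Figure D5:**
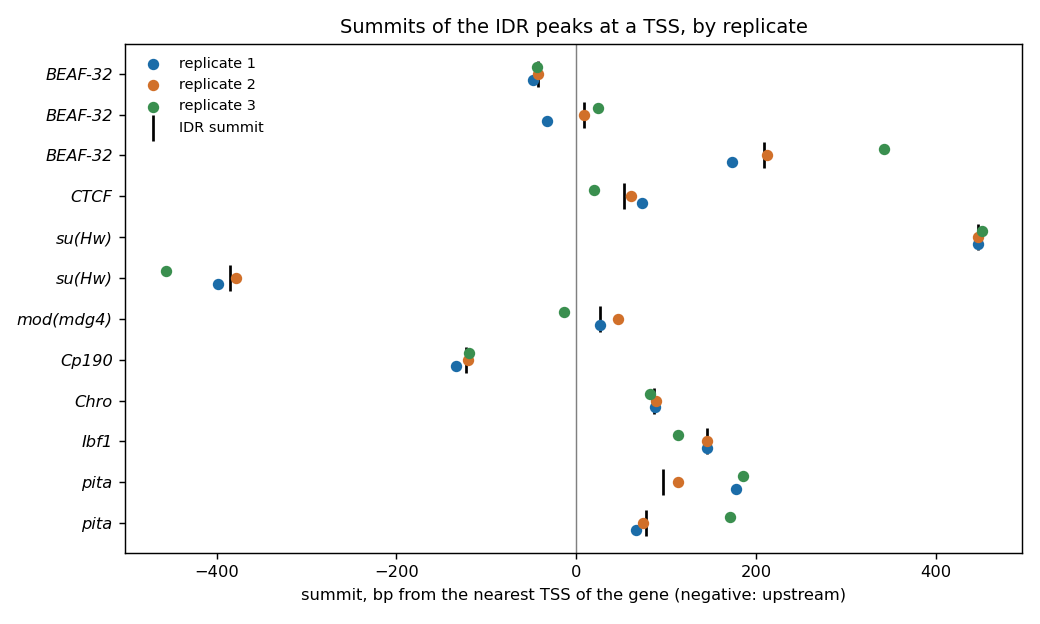
Summit positions of the 12 IDR peaks at a TSS of an insulator gene (bp from the nearest TSS of that gene, negative upstream); black ticks are IDR summits and points the nearest overlapping summit of each replicate. The replicates lie close together at Chro (SD 3.79 bp) and apart at the third BEAF-32 peak (SD 88.5 bp).

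In the gene windows, replicate 3 departed most often from the IDR summits, which were called on the pooled data. No such values are given for the whole IDR set, so whether this is particular to these windows is not shown. Over the 24 IDR peaks of the gene windows, the median distance of the replicate summit was 8 bp in replicate 1, 4 bp in replicate 2 and 20 bp in replicate 3. The summit lay within 20 bp of the IDR summit for 20, 21 and 12 of the 24 peaks. Of the 24 peaks, 24, 22 and 21 were supported by replicates 1, 2 and 3. The ranks given for a replicate are those of the region with the nearest summit, and another overlapping region can give the support.

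Weak pooled regions in the windows often overlapped a peak of an insulator gene or a neighbour. Of the 22 pooled regions in the windows that were no IDR peak, 12 (54.5%) overlapped an IDR peak, with summits 199 to 265 bp apart (median 202 bp). In the whole pooled list 12.2% of 21048 such regions did, at a median of 204 bp. The windows were denser in IDR peaks, with 24 among 46 pooled regions against 8952 among 30000. The shares are therefore not like for like. Most regions had 1 common width, 490 bp in the pooled list, and their source was not tested. The weak neighbours included those beside the peaks of CTCF, mod(mdg4), su(Hw), pita and Ibf1. They were therefore not read as separate sites.

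Genes of other insulator and architectural proteins gave a setting for these values. Of 26 such genes, which include those of cohesin, condensin and promoter-binding factors, 21 had a promoter peak, against 42.3% of all protein-coding genes. Their promoter signals ran from 304 to 1161 with a median of 594, against 461 for all 5903 genes with a peak. Chro and Cp190 were above all 21. The highest was Dref, the gene of the factor that reads the DRE (signal 1161, replicate ranks 416, 444 and 575). M1BP, a promoter-binding zinc-finger gene, followed (1004, replicate ranks 577, 647 and 462). By the rule of 50% overlap 2 of 3 replicates supported the M1BP peak, although all 3 ranked a region there high. The next were pzg, whose protein works with DREF (1000.3), and fs(1)h, the BET family gene (933). The 5 without a promoter peak were dwg, insv, Elba1, Elba2 and Elba3. Of these, dwg and insv had weak pooled regions of signal 151 and 136, and the Elba genes, whose proteins form an early embryonic boundary complex, had none. They share that with ZIPIC among the 10 genes.

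Motif letters were counted within 150 bp of each of the 12 promoter summits, on both strands, beside the 5716 promoter summits of the whole IDR set. The DRE TATCGATA lay near 4 of the 12, against 13.3% of all promoter summits. Those 4 were CTCF, mod(mdg4), Cp190 and the outer start of pita, and the letters are in the stretches shown above for CTCF and mod(mdg4). The shorter CGATA, which the DRE contains, lay near 9 of the 12, against 53.9%, and these included a match 3 bp from the Chro summit. GGTGGCGC lay near 1 of the 12, that of Cp190, 138 bp upstream of the summit, against 1.12%.
The other letters were seen as follows. TTGCATAC lay near none of the 12, against 1.4%, and GGTCACAC near 1, the upstream su(Hw) peak, against 12.1%. GAGAG lay near 2, against 27.5%, and both were pita peaks. CAGCTG lay near 2, against 18.9%, TATAAA near 4, against 43.5%, and the initiator letters TCAGT near 8, against 43.4%. The median GC content of the 12 windows was 39%, against 37.2% for all promoter summits. A match of letters is a description of sequence and not a binding site.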

How the data were processed

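ChIP-seq of CG12659-GFP was made from whole embryos in 3 biological replicates, 1 group. Whether these came from separate collections is not stated. Of the labels, the description (anti-GFP) was followed for the antibody rather than the antibody field (CG12659). Per the labels, chromatin was sonicated to 200 to 800 bp.

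The authors deposited narrowPeak lists. Per the file notes, calling was done per replicate and on all 3 together, with 1 control alignment that was not analysed here. The sources used here give no aligner, caller, version or IDR threshold. The deposited signal per region is the authors' score, whose scale differs between lists. The deposited −log10 q-value was not used for any result. The deposited summit offset, counted from the region start, gave each summit. Every IDR peak recurred in the pooled list with identical coordinates and summit.

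Regions on dm6 were joined to Ensembl release 115 (BDGP 6.54), without transposable elements, which left 18164 genes on 6 arms. Sequences were read from the release 6 genome by coordinates. Coordinates are 1-based, and the dm3 lists were not used.

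The genes, lists and motifs were chosen with earlier results of these data known, and no test was made. Named were all 10 genes with the genes that share their promoter peaks, and, of 26 other architectural protein genes, the 4 of highest promoter signal and those without a peak. The neighbours named at other peaks of the windows were chosen after their values were seen. The counting was checked on simulated regions. Alternatives were TSS distances of 200 and 1000 bp, the canonical TSS, other overlap rules, other windows and divergent distances, the stronger peaks and each replicate left out. Python 3.11.15, numpy 2.4.6, pandas 2.3.3 and matplotlib 3.10.9 were used.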

Additional observations from a re-analysis of the deposited data

How the results depend on the processing

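The count of 8 insulator genes with a promoter peak was 5 among the stronger IDR peaks (signal at or above their median), without su(Hw), mod(mdg4) and Ibf1. It was 7 within 200 bp, without su(Hw), and 7 at canonical TSSs, without Cp190. It was 9, with Ibf2, within 1000 bp, by any overlap with the 500 bp around a TSS, or over the pooled list, and 8 with any replicate left out. Of 90 calls of single genes under these alternatives 82 did not change. The count supported by every replicate was 8 of 8. Looser overlap rules and leaving a replicate out could not lower it. Of the alternatives tried, only a replicate summit within 100 bp could have, and it also gave 8. The median percentile of the promoter region, over the 9 genes with one, was 87.3 in the pooled list and 86.1, 88.2 and 87.5 in replicates 1, 2 and 3. Among the IDR peaks alone it was 65.3, over the 8 genes with a promoter peak. For the strongest region of the gene window it was 95.6, over all 10 genes. That last value is the peak at ATP6AP2, which counts for both Ibf1 and Ibf2. The gene sets behind these medians therefore differ. The count of genes with a peak away from every TSS was 1 beyond 500 bp, 3 beyond 200 bp and 0 beyond 1000 bp. The count with a divergent partner was 6 within 500 bp, 8 within 2000 bp and 5 for protein-coding partners. The median SD of the promoter summit was 28.4 bp, and 9.19 to 32.5 bp with a replicate left out, lowest at 9.19 bp without replicate 3. No paired analysis was possible because there is 1 group and no test. Without read counts, the depth behind each region is unknown.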
